A study of Homo sapiens with 4 samples.

Results

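RNA-Seq of SK-MEL-28, a cell line established from a human melanoma, was analysed for ID1, ID2, ID3, TGFB1, TGFB2, TGFBI, SMAD3, SMAD7 and CTGF, which are the inhibitor of DNA binding (ID) genes and a set of genes of the transforming growth factor beta (TGF-beta) response. These 9 genes were taken by name from the gene column of the deposited table, which holds 25268 symbols, and each had a single row there. There were 4 libraries, 1 for each condition. The vector line had been transduced with lentivirus of the empty pTRIPZ vector, and the MYC-inducible line (the MYC line) with the MYC gene behind a Tet-inducible promoter. Both lines had been selected with geneticin and were grown with G418, and each was sequenced without doxycycline (Dox) and after 54 hours with Dox. Because each condition has 1 library, no difference has a replicate check, no test was made and no p-value is given. The lines are called the vector line and the MYC line below, and values in every library are given in the order of vector line without and with Dox, then MYC line without and with Dox.

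TGF-beta and the related bone morphogenetic proteins (BMPs) bind receptor kinases at the cell surface, which phosphorylate SMAD proteins that then enter the nucleus and act on transcription. TGF-beta works mainly through SMAD2 and SMAD3, BMPs work mainly through SMAD1 and SMAD5, and SMAD7 is an inhibitor that the pathway itself induces. ID proteins hold a helix-loop-helix but no DNA-binding region, so they pair with E proteins and keep them from DNA, and ID genes are classical targets of BMP signalling. CTGF (now CCN2), a secreted matrix-associated protein, is induced by TGF-beta and also by YAP with TEAD factors. In many cells MYC opposes the growth arrest that TGF-beta brings about.

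With Dox in the MYC line CTGF was 2.61-fold lower and TGFB1, the gene of the ligand TGF-beta 1, was 3.17-fold lower, while neither was lower by that much in the vector line. The 3 ID genes changed little and stayed the most abundant of the 9 genes. SMAD3 stayed level, and SMAD7 was 1.30-fold lower with Dox in the MYC line, short of the threshold used. TGFB2 and TGFBI were nearly silent in each of the 4 libraries.

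The stretches before the start sites of CTGF, TGFB1 and ID3 are shown because these genes mark the extremes, 2 genes with lower levels in the MYC line with Dox and the most abundant gene, which was not. Each is the 250 bases before the RefSeq start, written 5′ to 3′ on the strand of the gene and placed on GRCh37 by an exact match. Capitals mark GGAATG (the core bound by TEAD factors), CACGTG (the E-box bound by MYC and MAX) and GTCTG (a SMAD-binding core), each searched on both strands.
CTGF, chr6:132272513-132272762, minus strand: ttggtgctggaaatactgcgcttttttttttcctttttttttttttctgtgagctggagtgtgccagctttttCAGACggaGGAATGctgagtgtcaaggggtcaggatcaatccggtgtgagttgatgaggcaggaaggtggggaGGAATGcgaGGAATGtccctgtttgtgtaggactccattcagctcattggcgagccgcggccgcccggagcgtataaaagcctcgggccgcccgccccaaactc
TGFB1, chr19:41859828-41860077, minus strand: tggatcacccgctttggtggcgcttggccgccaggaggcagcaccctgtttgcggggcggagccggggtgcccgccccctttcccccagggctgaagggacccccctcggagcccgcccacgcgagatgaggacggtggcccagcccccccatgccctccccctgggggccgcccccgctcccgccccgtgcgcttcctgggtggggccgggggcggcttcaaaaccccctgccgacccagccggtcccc
ID3, chr1:23885993-23886242, minus strand: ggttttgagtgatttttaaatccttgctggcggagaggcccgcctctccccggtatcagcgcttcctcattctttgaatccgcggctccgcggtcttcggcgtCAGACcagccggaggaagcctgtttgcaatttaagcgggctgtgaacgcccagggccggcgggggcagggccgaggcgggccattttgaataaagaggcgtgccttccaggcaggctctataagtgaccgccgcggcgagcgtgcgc

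The CTGF stretch held GGAATG 3 times, with first bases at -169, -104 and -95 from the start, and CAGAC, the reverse complement of GTCTG, once at -177. None of the 3 motifs was in the TGFB1 stretch, and ID3 held CAGAC once. Of the 35116 promoter windows in the RefSeq table, 11.9% held GGAATG, 6.34% held CACGTG and 13345 windows held GTCTG in the same 250 bases. Among the windows of the 9 genes, GGAATG was also found before TGFB2, and CACGTG was found before TGFB2 and before 1 of the 5 starts of SMAD3. GTCTG or CAGAC was also found before TGFB2 and before some of the starts of SMAD3 and SMAD7. In the TGFB2 window a CAGAC and the CACGTG share a base. GGCGCC, a GC-rich SMAD motif found in 16.4% of windows, was present before TGFBI and before 1 start of SMAD3. TGACTCA, the AP-1 motif found in 1476 windows, was present before a different start of SMAD3. These matches describe letters in a short window and not binding.

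The deposited values are FPKM (fragments per kilobase of transcript, scaled to the mapped fragments of the library), which can be compared between genes because they are per length. The values summed to between 692146 and 715495 over all symbols. From the steps between very low values, the libraries held approximately 39500000 fragments (vector line without Dox), 35400000 (vector line with Dox), 42500000 (MYC line without Dox) and 39700000 (MYC line with Dox). MYC itself had 58.3, 54.8, 76.5 and 87.1 FPKM. Dox went with a log2 change of 0.19 in the MYC line and -0.09 in the vector line, and before Dox it was already higher in the MYC line, by 0.39. These 3 differences fall short of the 1.5-fold threshold used below, and between the lines with Dox MYC was 1.59-fold higher in the MYC line. The libraries are therefore named by their line and by Dox and not by the level of MYC. By other assays, the paper reports that Dox raised MYC mRNA (RT-PCR) and E-box reporter activity in the MYC-inducible cells. The reason for the smaller difference in FPKM was not tested. All 8 markers of melanocytic cells that were looked for were present, and PMEL reached 6227 FPKM. Of the markers of other cells, the 4 of leukocytes summed to at most 0.0621 FPKM and the 4 of endothelial cells to at most 0.427 FPKM. Among 5 fibroblast markers LUM was between 26.0 and 31.5 FPKM, whereas COL3A1 and THY1 were listed at 0.

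A change below is a difference of log2(FPKM + 0.1) between 2 libraries, which understates the change of low genes, and ratios are of FPKM itself. Counting intervals are exact 95% intervals on approximate fragment numbers and cover counting error only, not the difference between cultures. A gene was counted as higher or lower from a 1.5-fold difference on the log2(FPKM + 0.1) scale, over the 11147 genes that averaged 1 FPKM or more. Of the 9 genes 6 passed this filter, and TGFB1, TGFBI and TGFB2 lay below it. With Dox in the MYC line, 1 of the 6 (CTGF) was lower and 0 were higher, where 8.85% of all genes were lower and 5.90% were higher. Below the filter 2 of 3 genes, TGFB1 and TGFBI, were lower by this measure. Without the filter 1748 of the 25268 symbols were lower in the MYC line and 1138 were higher. A share over the genes below the filter alone was not calculated in any comparison. In the vector line 0 of the 6 genes were higher or lower with Dox, where 0.709% of all genes were higher and 0.440% were lower. TGFBI, below the filter, was higher there, where 529 of the 25268 symbols were higher without the filter. The median change of the 6 genes was -0.11 in the MYC line, beside -0.03 over all genes, and -0.04 in the vector line, beside 0.01 over all genes.

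**Figure D1:**
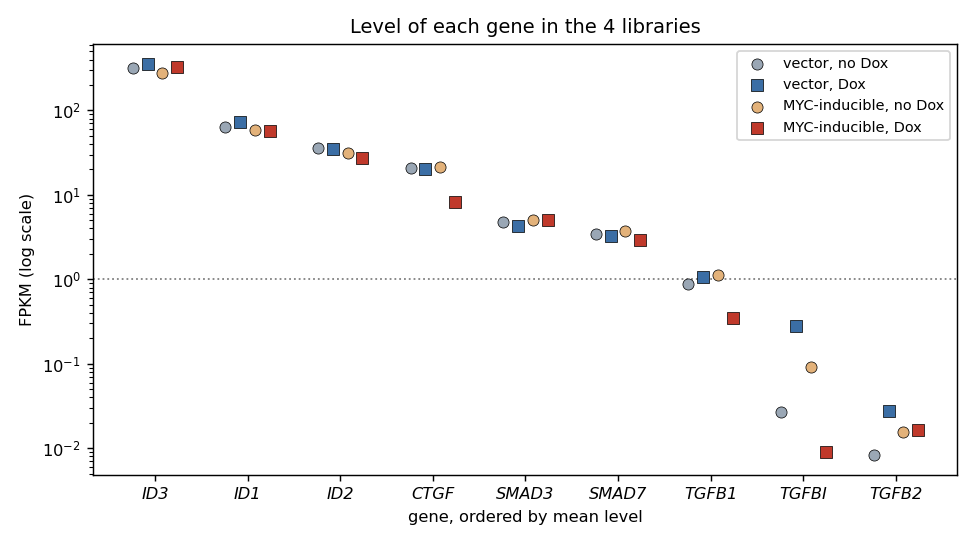
FPKM of each of the 9 genes (log axis) in the 4 libraries, 1 point per library, with genes ordered by their mean over the libraries and a dotted line at 1 FPKM. CTGF at 8.26 FPKM and TGFB1 at 0.351 FPKM in the MYC line with Dox lie apart from their other points, and the points of the ID genes lie close together.

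The order of the mean levels was ID3, ID1, ID2, CTGF, SMAD3, SMAD7, TGFB1, TGFBI and TGFB2. The ranges over the 4 libraries did not overlap between neighbours in this order except for TGFBI and TGFB2. ID3 ranged from 278 to 358 FPKM, ID1 from 57.7 to 73.3 FPKM and ID2 from 27.4 to 35.5 FPKM. The highest library was 1.29 times the lowest for ID3, 1.27 times for ID1 and 1.29 times for ID2.

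ID3 (chromosome 1, 23884417 to 23885992 on GRCh37) had 317 FPKM without and 358 FPKM with Dox in the vector line, and 278 and 323 FPKM in the MYC line. The values with Dox were higher in both lines, by 0.17 in the vector line and by 0.22 in the MYC line on the log2 scale. The ratio was 1.13 (counting interval 1.10 to 1.16) in the vector line and 1.16 (1.13 to 1.19) in the MYC line, so the difference between the lines was only 0.04. Against the vector line with Dox, the MYC line with Dox had the lower level, with a log2 difference of -0.15.

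ID1 (chromosome 20, 30193086 to 30194318) had 63.2 FPKM without and 73.3 FPKM with Dox in the vector line, and 58.5 and 57.7 FPKM in the MYC line. The vector line with Dox was the highest and the MYC line with Dox the lowest. The ratio with Dox was 1.16 (counting interval 1.10 to 1.23) in the vector line and 0.987 (0.932 to 1.05) in the MYC line. The log2 change of -0.02 in the MYC line took the other sign, 0.03 and 0.01, under scaling by median ratio or upper quartile, so no direction is given.

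ID2 (chromosome 2, 8818975 to 8824591), known as a target of MYC in some cells, had 35.5 FPKM without and 34.7 FPKM with Dox in the vector line. In the MYC line it had 31.5 and 27.4 FPKM, the lowest level being that of the MYC line with Dox. The ratio was 0.872 (counting interval 0.812 to 0.936) in the MYC line and 0.976 (0.911 to 1.04) in the vector line. The log2 change of -0.20 stayed well under the 1.5-fold threshold and was negative under the other pseudocounts, scalings and reference library. The other filters, the 2-fold threshold and keeping 1 row per symbol cannot change the value of this gene. ID2-AS1 overlaps exons of ID2 on the opposite strand, and the strand setting of the counting is not stated.

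CTGF (chromosome 6, 132269316 to 132272512) had 20.8 FPKM without and 20.3 FPKM with Dox in the vector line. It had 21.6 FPKM in the MYC line without Dox and 8.26 FPKM with Dox. The MYC line with Dox was the lowest, and the other libraries lay between 20.3 and 21.6 FPKM. The log2 change was -1.38 in the MYC line and -0.04 in the vector line, a difference of -1.34. The level was 2.61-fold lower (counting interval 2.41 to 2.84), which rested on approximately 2150 fragments without Dox and 767 with Dox. Against the vector line with Dox it was 2.46-fold lower (2.25 to 2.68). LINC01013 overlaps CTGF exons on the opposite strand. It had 4.78, 4.55, 5.57 and 3.18 FPKM in the order of the libraries above, with a log2 change of -0.79 in the MYC line, and reads shared between both genes were not tested.

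TGFB1 (chromosome 19, 41807492 to 41859827) was low, at 0.882 FPKM without and 1.06 FPKM with Dox in the vector line, and 1.11 and 0.351 FPKM in the MYC line. Again the MYC line with Dox was the lowest. It rested on approximately 39 fragments, against 131 in the same line without Dox, and the level was 3.17-fold lower (counting interval 2.18 to 4.61). In the vector line the ratio with Dox was 1.20 (0.898 to 1.59). The log2 change was -1.43 in the MYC line and 0.24 in the vector line. HNRNPUL1 overlaps TGFB1 exons on the opposite strand and stayed between 46.5 and 49.7 FPKM.

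TGFBI (chromosome 5, 135364677 to 135399507), which codes for a secreted matrix protein induced by TGF-beta, had 0.0269, 0.280, 0.0917 and 0.00893 FPKM in the same order of libraries. These values were whole multiples of a single step within 1.5%, at 3, 28, 11 and 1 fragments or a multiple of these. The vector line with Dox was the highest and the MYC line with Dox the lowest. With Dox the ratio was 10.4 in the vector line (counting interval 3.21 to 53.5) and 0.0973 in the MYC line (0.00226 to 0.669). TGFB2 (chromosome 1, 218518678 to 218617961), the gene of TGF-beta 2, had 0.00828, 0.0277, 0.0154 and 0.0165 FPKM. At its annotated length this is approximately 1.92, 5.75, 3.84 and 3.84 fragments. The TGFB2 values also fitted whole multiples of a single step, at 1, 3, 2 and 2 fragments or a multiple of these. No change was detectable at this depth.

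SMAD3 (chromosome 15, 67356101 to 67487511), the transcription factor that carries the TGF-beta signal, had 4.78 FPKM without and 4.28 FPKM with Dox in the vector line, and 5.005 and 5.05 FPKM in the MYC line. The vector line with Dox was the lowest. The ratio with Dox was 1.01 (counting interval 0.934 to 1.09) in the MYC line and 0.894 (0.821 to 0.973) in the vector line. The log2 change of 0.01 in the MYC line became -0.03 when libraries were rescaled to the same sum. SMAD7 (chromosome 18, 46446223 to 46477335) had 3.40 and 3.26 FPKM in the vector line, and 3.78 and 2.91 FPKM in the MYC line. The MYC line with Dox was the lowest, and the ratio there was 0.768 (0.673 to 0.878), against 0.959 (0.835 to 1.10) in the vector line. Its log2 change of -0.37 did not reach the threshold.

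**Figure D2:**
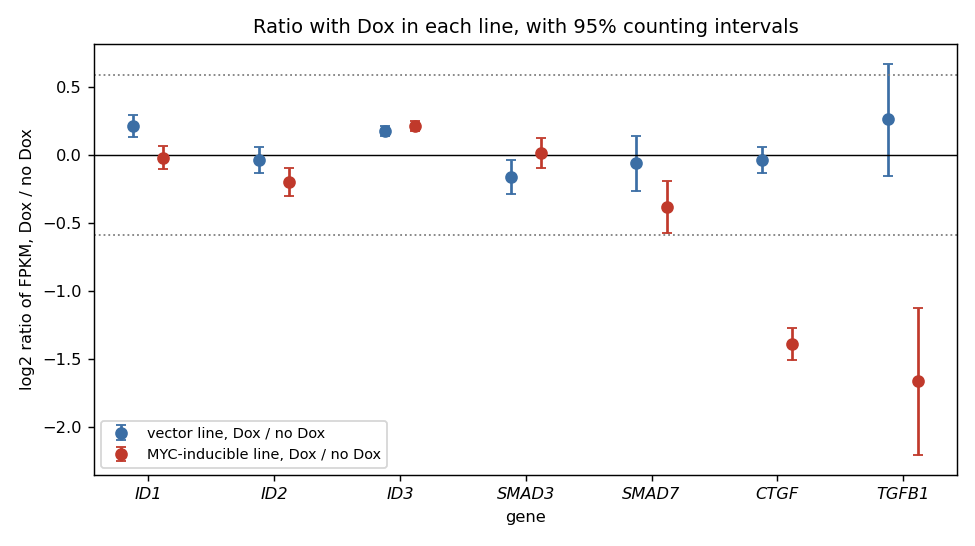
Log2 ratio of FPKM with Dox over without Dox (vertical axis) for 7 genes in the vector line (blue) and the MYC line (red). Bars are 95% counting intervals and dotted lines mark 1.5-fold. TGFB2 and TGFBI are left out because of their few fragments. The red points of CTGF and TGFB1, at 2.61-fold and 3.17-fold lower, lie below the dotted line, and the bars of the ID genes and of SMAD3 lie within both dotted lines.

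**Figure D3:**
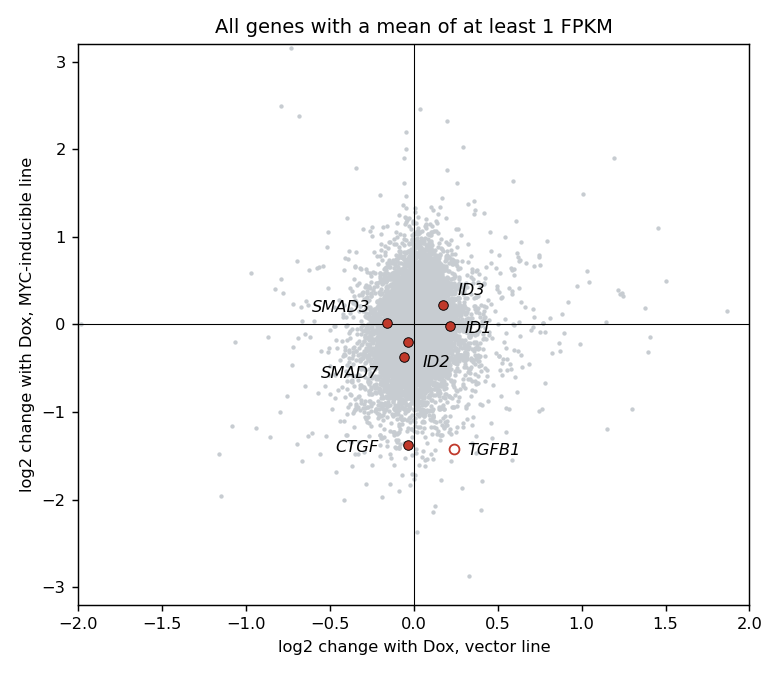
Log2 change with Dox in the vector line (horizontal) and in the MYC line (vertical) for the genes that averaged 1 FPKM or more (grey), of which 48 lie outside the axes. Red points are the 6 genes that passed the filter, and the open point is TGFB1. CTGF lies at -1.38 on the vertical axis, and the other 5 red points lie between -0.37 and 0.22.

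The untreated lines were compared to see the levels before Dox. In this comparison 0 of the 6 genes differed by 1.5-fold, where 0.592% of all genes were higher and 0.287% were lower in the MYC line. The log2 differences were -0.11 for ID1, -0.18 for ID2, -0.19 for ID3, 0.06 for SMAD3, 0.15 for SMAD7 and 0.05 for CTGF. All 3 ID genes were thus lower in the MYC line before Dox, by less than the threshold. Between the lines with Dox, CTGF alone of the 6 genes was lower and 0 were higher, where 8.62% of all genes were lower and 6.50% were higher. There the log2 differences were -0.34 for ID1, -0.34 for ID2, -0.15 for ID3, 0.23 for SMAD3 and -0.16 for SMAD7. Below the filter TGFBI was higher in the untreated comparison, and TGFB1 and TGFBI were lower between the lines with Dox. These comparisons share libraries with those above and are not further evidence.

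The other genes of the pathway were taken as lists, which hold 142 different genes of the table, and 75 of these passed the filter. In the MYC line 14 of the 75 (18.7%) were lower with Dox and 6 were higher, and in the vector line 0 were lower and 1 was higher. The median change of the 75 was -0.27 in the MYC line and -0.01 in the vector line. The shares over all genes were those given above. Many of the single calls below lay near the threshold. Under a pseudocount of 1 FPKM, TGFB3 (0.47), SNAI1 (0.46), TCF3 (0.56), ACVR1 (-0.57), ITGAV (-0.56), AMOTL2 (-0.41) and F3 (-0.42) were no longer past it. With libraries rescaled to the same sum, TCF3 (0.54) and SPHK1 (0.56) fell short, while LTBP3 (-0.62), FURIN (-0.59), NBL1 (-0.59), ID4 (-0.60) and HEY1 (-0.63) passed it. With median-ratio scaling ITGAV and AMOTL2 (both -0.56) fell short and ENG (0.63) passed. Against the vector line with Dox, ITGB8 (-0.58), ITGAV (-0.55), BHLHE40 (-0.53), TCF3 (0.56) and SPHK1 (0.20) fell short. On the lower side CYR61 (-1.18), ATOH8 (-0.73), TPM1 (-0.65), BAMBI (-0.61), ID4 (-0.60) and TGIF1 (-0.59) then passed it. On the higher side FOXF2 (0.80), CDH2 (0.68), GDF11 (0.59) and ENG (0.59) did.

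**Figure D4:**
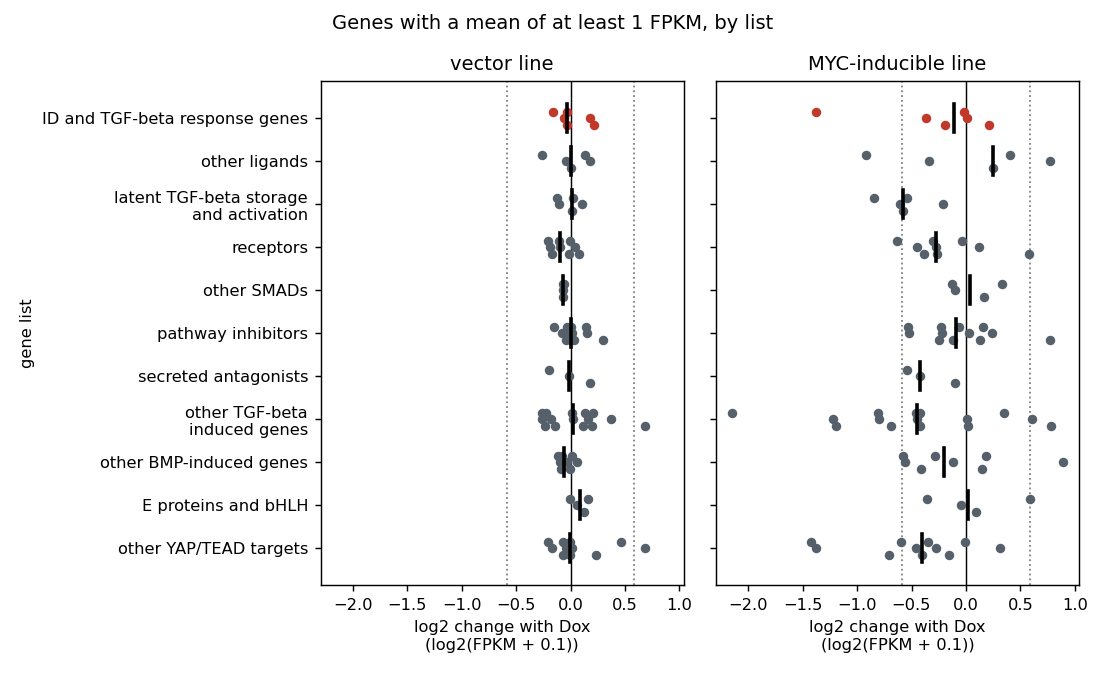
Log2 change with Dox (horizontal, on log2(FPKM + 0.1)) of the genes that passed the filter in each list (rows), in the vector line (left) and the MYC line (right). Each point is a gene, black bars are medians and dotted lines mark 1.5-fold. In the vector line only CYR61 is past the threshold among the pathway genes, and in the MYC line other TGF-beta induced genes reach from -2.14 to 0.78.

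Among the ligands, 5 of 21 genes passed the filter. TGFB3, the third TGF-beta ligand, was higher, with 0.962 FPKM without and 1.71 FPKM with Dox in the MYC line and 1.04 and 1.05 FPKM in the vector line, a call lost under a pseudocount of 1 FPKM. GDF15, a distant secreted relative that stress induces, was lower, from 458 to 242 FPKM in the MYC line, and had 452 and 510 FPKM in the vector line. BMP7, the most abundant BMP ligand here, went from 15.2 to 18.1 FPKM, which did not reach the threshold.

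Among the genes that store latent TGF-beta in the matrix or release it, 2 were lower with Dox in the MYC line. Of the 12 listed, 11 were in the table and 5 passed the filter, and all 5 were below 0 in the MYC line, with a median of -0.58. The integrin subunits ITGB8 and ITGAV, which form a receptor that activates latent TGF-beta, were past the threshold. Under the other scalings 1 to 4 of the 5 genes were, and 0 were against the vector line with Dox. ITGB8 went from 15.2 to 8.38 FPKM and ITGAV from 15.2 to 9.96 FPKM. LTBP3, which binds latent TGF-beta, had a change of -0.58, and FURIN, the protease that cleaves the precursor, had -0.54, both just short of the threshold. In the vector line the 5 genes had a median of 0.02.

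Of 13 receptors, 9 passed the filter, 1 was lower and 0 were higher with Dox in the MYC line, with a median of -0.27. ACVR1, a type I receptor for BMPs, was lower, from 10.5 to 6.77 FPKM. The TGF-beta receptors TGFBR1 and TGFBR2 had changes of -0.27 and -0.38. ENG, a co-receptor, moved the other way, from 15.6 to 23.4 FPKM, a change of 0.58 that fell just short of the threshold and passed it when libraries were scaled by median ratio. Among the other SMAD genes 4 of 6 passed the filter and 0 were higher or lower. SMAD2 had 4.88 and 4.45 FPKM, and SMAD5 had 4.48 and 5.05 FPKM, without and with Dox in the MYC line.

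All 12 genes of the pathway's inhibitors passed the filter, 1 was higher and 0 were lower, with a median of -0.09. TGIF2, a repressor that binds SMADs, was higher, from 7.41 to 12.7 FPKM, whereas its relative TGIF1 went from 22.1 to 15.3 FPKM, short of the threshold. BAMBI, a decoy receptor, was abundant at 214 FPKM and had 148 FPKM with Dox, a change of -0.53. Against the vector line with Dox 2 inhibitors were lower, TGIF1 (-0.59) and BAMBI (-0.61). Of 13 secreted antagonists 3 passed the filter and 0 were past the threshold. The most abundant, NBL1, went from 562 to 385 FPKM, a change of -0.55, and FSTL3 went from 6.59 to 6.14 FPKM.

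Other genes known to be induced by TGF-beta held the largest number past the threshold of any list, and were also the longest list. Of 25 listed, 15 passed the filter, 6 were lower and 2 were higher with Dox in the MYC line, and the median was -0.45. Over all genes 8.85% were lower and 5.90% were higher. CDKN1A and CDKN2B code for inhibitors of cyclin-dependent kinases that TGF-beta is known to induce and MYC to repress. CDKN1A went from 13.7 to 3.03 FPKM, a change of -2.14, and CDKN2B went from 4.11 to 2.31 FPKM. TGFB1I1, a focal adhesion protein, went from 11.4 to 4.82 FPKM, and FN1, the matrix protein fibronectin, went from 205 to 89.7 FPKM. The other lower genes were BHLHE40 (-0.80) and VIM (-0.68). The higher genes were SNAI1, a repressor of epithelial genes, with 0.78, and SPHK1, a sphingosine kinase, with 0.61. Of these 2 genes 1 was past the threshold under a pseudocount of 1 FPKM, and 1 with libraries rescaled to the same sum. In the vector line CYR61 (now CCN1), a relative of CTGF, was the 1 gene past the threshold. It had 1.29 FPKM without and 2.14 FPKM with Dox there, and 1.25 and 0.887 FPKM in the MYC line.

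Of 20 other targets of YAP with TEAD, 11 passed the filter, 4 were lower and 0 were higher in the MYC line, with a median of -0.41. The shares over all genes were 8.85% lower and 5.90% higher. NT5E, an enzyme that makes adenosine at the cell surface, went from 56.0 to 20.8 FPKM. IGFBP3, which binds insulin-like growth factors, went from 9.79 to 3.70 FPKM. F3, the coagulation tissue factor, had a change of -0.71, and AMOTL2, a partner of YAP, had -0.60. Over the 4 libraries NT5E was also the gene whose profile was most like that of CTGF. After each profile was centred on its own mean, the Euclidean distance was 0.0515 on the log2 scale, out of 7470 genes averaging 5 FPKM or more, and ITIH5 followed at 0.0546.

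Among 11 other genes induced by BMP, 8 passed the filter, 1 was higher and 0 were lower, with a median of -0.20. DLX5, a homeobox factor, was higher, from 1.76 to 3.34 FPKM. ID4, the remaining member of the ID family, had 2.30 and 2.17 FPKM in the vector line and 2.11 and 1.40 FPKM in the MYC line, a change of -0.56 that did not reach the threshold. HEY1, a repressor, had a change of -0.58. With libraries rescaled to the same sum 2 genes of this list, ID4 and HEY1, were lower, and 2 were lower against the vector line with Dox, ID4 (-0.60) and ATOH8 (-0.73). Of 12 E proteins and tissue factors of the bHLH class, 4 passed the filter and 1, the E protein TCF3, was higher, from 12.2 to 18.5 FPKM.

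Markers of melanocytic cells moved in the same library. Of the 8 markers 5 were lower with Dox in the MYC line, where 8.85% of all genes were lower. In the vector line 0 of the 8 were lower, where 0.440% of all genes were. The summed level of the 8 markers was 4666 FPKM in the MYC line with Dox, against 8433 to 8578 FPKM in the other libraries. Among 4 epithelial markers, EPCAM went from 0.726 to 2.71 FPKM in the MYC line, while KRT5 was listed at 0. CDH1 and KRT14, both below the filter, went the other way there, from 0.194 to 0.121 FPKM and from 0.195 to 0.128 FPKM. The part of these differences in the changes of CTGF and TGFB1 was not tested. In bulk RNA, fewer cells of a type and less RNA per cell cannot be told apart.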

How the data were processed

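RNA was sequenced from 4 cultures. The deposited values are FPKM for each gene symbol, calculated by the authors, and the submitters' processing notes name TopHat2 2.0.14 and Cufflinks with hg19 (GRCh37). Annotation and strand setting are not given in the sources used here. Of 27032 rows, 1 had no gene name and was dropped, and rows sharing a symbol were summed.

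Members and gene lists were chosen with earlier results of these data known. Named genes were up to 4 per list with the largest change past 1.5-fold in the MYC line, or the 2 most abundant where none passed. Each member past 1.5-fold there also brought the 2 genes nearest to its centred log2 profile by Euclidean distance, and MYC was named as the gene behind the inducible promoter. COL3A1, THY1, KRT5, BMP7, LTBP3, FURIN, TGFBR1, TGFBR2, ENG, TGIF1, BAMBI, BHLHE40, VIM, SNAI1, SPHK1, CYR61, ID4, HEY1 and ATOH8 were added after their values were seen, as were the genes that overlap a member. CDH1, KRT14, GDF11, TPM1, CDH2 and FOXF2 were added in the same way. LRRC33 was not matched in the table.

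Relative depth came from ratios between values under 0.05 FPKM, and absolute depth from 167 genes with 1 annotated transcript of at least 1500 bases, whose estimates had quartiles of 32800000 and 41100000 fragments. Fragments per gene use the canonical transcript of GENCODE release 44, so intervals are approximate. Steps were checked within 1.5%. Alternatives were other pseudocounts, filters, scalings, a 2-fold threshold, 1 row per symbol and another reference library. Splicing was not analysed here. Calculations were tested on simulated data. Python 3.11.15, numpy 2.4.6, pandas 2.3.3, scipy 1.17.1 and matplotlib 3.10.9 were used.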

Additional observations from a re-analysis of the deposited data

Results flagged for a closer look

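TGFBI moved in opposite directions with Dox in the lines, each with a counting interval that excluded a ratio of 1. The change in the MYC line minus that in the vector line was -2.40 on the log2(FPKM + 0.1) scale. The values rest on 3 and 28 fragments in the vector line and on 11 and 1 in the MYC line. The difference was not tested, since each condition has 1 library.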

How the results depend on the processing

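No paired analysis was possible because a condition is a single library, which also leaves no replicate to drop. Of 1055 recalculated values for single genes and smaller counts, 958 moved by less than 0.107 on the log2 scale (the robust SD over genes in the vector line) or, for counts, by less than 1.5 times. Filters and the 2-fold threshold do not enter the change of a single gene, so part of these values could not move. The same holds for keeping 1 row per symbol where a gene has a single row. None of the alternatives turned the direction of a gene past the threshold. CTGF stayed between -1.42 and -1.29 in the MYC line. TGFB1 ranged from -1.64 to -0.64, the smallest with a pseudocount of 1 FPKM.
Without the filter, the 9 genes had 3 lower in the MYC line, 1 higher in the vector line, 3 lower between the lines with Dox and 1 higher between the untreated lines, and a median of 0.17 in the vector line. Under a filter at 5 FPKM their median between the untreated lines was -0.14. Against the vector line with Dox their median was -0.25.
Over all genes in the MYC line, 1138 of 25268 symbols were higher and 1748 lower without the filter. The counts were 436 and 549 under a filter at 5 FPKM, and 117 and 228 when 2-fold was asked for. For the vector line these counts were 529 and 387, 25 and 8, and 28 and 15 in the same order, and 43 and 22 with a pseudocount of 1 FPKM.
Among the list medians, that of the ligands was 0.00 without the filter, -0.34 under a filter at 5 FPKM and 0.41 against the vector line with Dox. That of latent TGF-beta storage was -0.36 without the filter, and that of the secreted antagonists was -0.0637. The other TGF-beta induced genes had -0.57 under a filter at 5 FPKM, and 3 of them were lower at 2-fold. The bHLH genes had 0.27 under a filter at 5 FPKM, and the YAP targets -0.26 with a pseudocount of 1 FPKM. Against the vector line with Dox the medians were -0.46 for latent TGF-beta storage, -0.0712 for the receptors, 0.17 for the bHLH genes and -0.58 for the YAP targets. The filters change which genes are included, whereas the cause was not tested where the scale or reference moved a value.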

Other observations

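Profiles over the 4 libraries were compared only with genes averaging 5 FPKM or more. The nearest to TGFB1 were APOE, a lipid carrier, at a distance of 0.142, and CSPG4, a proteoglycan of melanoma cells, at 0.145. APOE had 423 FPKM without and 504 FPKM with Dox in the vector line, and 476 and 203 FPKM in the MYC line. CSPG4 had 22.4, 24.6, 24.6 and 10.3 FPKM in the same order. For TGFBI the nearest of these genes were BEX1 at 0.577 and CXCL8, a chemokine, at 0.6002. Genes at the low level of TGFBI were not compared. BEX1 had 5.83 FPKM without and 15.6 FPKM with Dox in the vector line, and 5.30 and 4.78 FPKM in the MYC line.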
